A study of Penaeus vannamei with 6 samples.

Results

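In gill RNA of juvenile whiteleg shrimp, 62 of 341828 assembled transcripts stood at a higher level in fresh water than in brackish water and at a higher level in brackish water than in seawater. They were chosen on the measured values of all 6 libraries. A transcript belonged to the set when its mean over the libraries was at least 5 and under 1000 RPKM (reads divided by the length of the transcript in kilobases and by the total of the library) and its lowest seawater value was at least 1 RPKM. In addition, both brackish water libraries had to lie above both seawater libraries, both fresh water libraries above both brackish water libraries, and the fresh water mean had to be at least 4 times the seawater mean. The order of the groups and the size of the rise are therefore how the transcripts were picked, and they are given below as a description with no test. The rule turned round, with fresh water lowest and seawater highest, was met by 132 transcripts.

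The whiteleg shrimp Penaeus vannamei (Litopenaeus vannamei in the series title) was cultured in fresh water, brackish water or seawater, and 2 gill libraries of each condition were analysed, although the design text speaks of 3 per condition. The groups differ by the water alone as far as the labels go. The labels give no salinity value, no duration of culture and no animal or culture for any library, so spreads and p-values measure only the difference between these libraries, which may be technical. The transcripts come from a de novo assembly, in which a component is a group of transcripts that share sequence.

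The gill is where a shrimp exchanges ions with the water. In dilute water the animal loses salt to its surroundings and takes it up again across the gill epithelium, a transport driven by ion pumps such as the Na+/K+-ATPase and the V-type H+-ATPase, with carbonic anhydrase supplying protons and bicarbonate for exchange. The same organ also serves gas exchange, ammonia excretion and defence, so its RNA comes from several cell types. In whole gill RNA, fewer cells of a type and less RNA per cell cannot be told apart. No gene names come with the transcript IDs. Of these IDs 0 were found in the RefSeq table for ASM4276789v1, and no list of pumps, transporters or cell type markers could be applied. No role is given to any member for that reason, and 2 members are named by ID. One had the largest ratio of fresh water to seawater and the other the highest mean level.

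The libraries did not fall cleanly by group, and this bears on every value below. The deepest library was brackish water library 1 with 37027007 reads, and the shallowest was seawater library 1 with 16500257. Reads were found for 207274 and 213853 transcripts in fresh water, 203824 and 61478 in brackish water, and 55464 and 72650 in seawater. Brackish water library 2 thus resembled seawater in its breadth and library 1 resembled fresh water. In brackish water library 2 the 10 most abundant transcripts took 41.2% of the reads, against 9.63% to 16.3% in the other 5 libraries. RPKM does not correct for such unevenness. TMM factors, which scale libraries so that most transcripts are level, were 1.55 and 1.87 in fresh water, 1.54 and 0.391 in brackish water, and 0.655 and 0.874 in seawater.

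The members together were a minor part of the RNA. They took 0.496% and 0.640% of the reads in fresh water, 0.369% and 0.156% in brackish water, and 0.0668% and 0.0743% in seawater. Their summed level was 3753 and 4791 RPKM in fresh water, 2662 and 1220 RPKM in brackish water, and 403 and 533 RPKM in seawater. The 2 seawater libraries lay close together in this sum, while brackish water library 1 lay far above brackish water library 2.

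Single members were of low to moderate abundance. The median level over the 62 was 26.01 and 42.5 RPKM in fresh water, 19.9 and 7.49 RPKM in brackish water, and 2.47 and 2.92 RPKM in seawater. The 7651 transcripts that met the limits on the mean and on seawater had medians of 14.4 and 16.3 RPKM in fresh water, 14.6 and 5.13 RPKM in brackish water, and 9.18 and 10.9 RPKM in seawater. A low level in brackish water library 2 was thus common to both, and the members stood below the wider set in seawater and above it in fresh water, as the rule requires. By mean level, 10 members lay at 5 to 10 RPKM, 33 at 10 to 30 RPKM, 12 at 30 to 100 RPKM and 7 at 100 RPKM or more. In the wider set 38.8% lay at 5 to 10 RPKM, against 16.1% of the members.

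**Figure D1:**
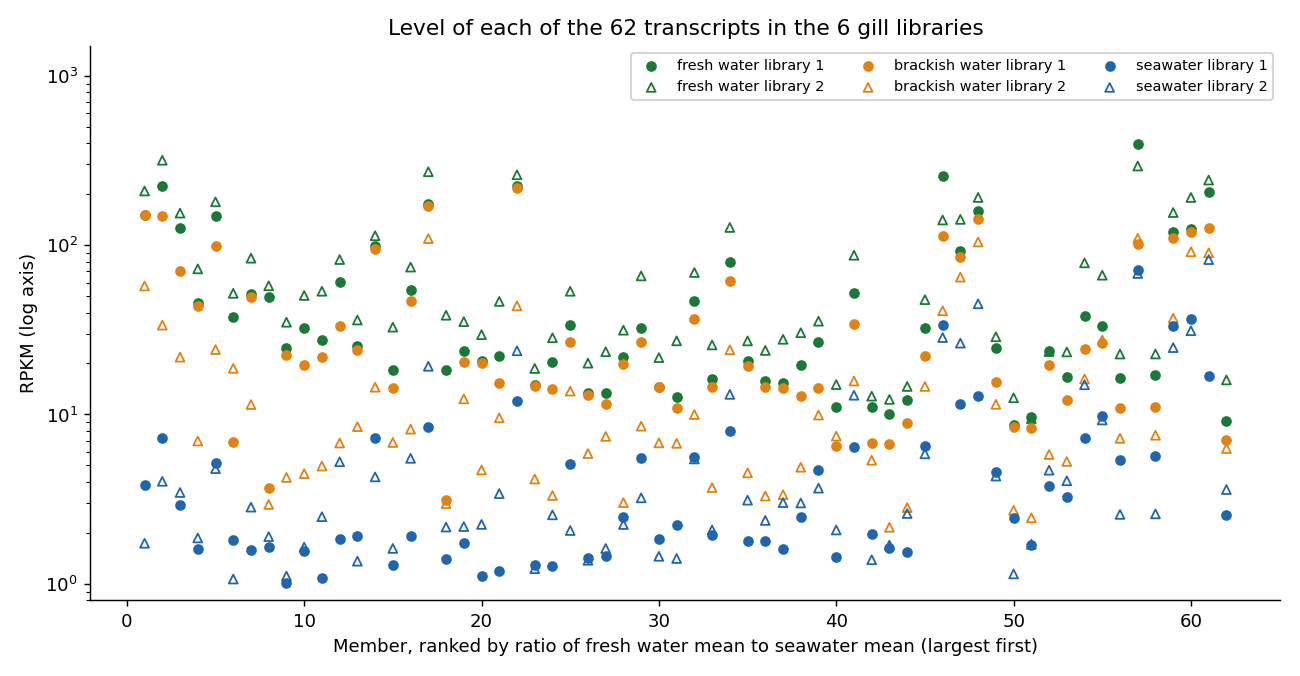
Level of each of the 62 transcripts in the 6 libraries, in RPKM on a log axis, with the transcripts ranked from the largest to the smallest ratio of fresh water mean to seawater mean. Filled circles are library 1 and open triangles library 2 of each condition; brackish water library 1 lies above library 2 in 58 transcripts and often close under the fresh water libraries.

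The size of the rise varied widely among the members. The ratio of the fresh water mean to the seawater mean ran from 4.10 to 64.4, with a median of 10.7. It lay at 4 to 8 in 24 members, 8 to 16 in 21, 16 to 32 in 12, and at 32 or more in 5. The median ratio over the 7651 transcripts was 1.40. The members with a ratio of 10 or more numbered 33 and had a median seawater mean of 1.96 RPKM and a median fresh water mean of 41.4 RPKM. For the 29 with a smaller ratio these medians were 4.18 RPKM in seawater and 25.03 RPKM in fresh water. The larger ratios went with lower seawater levels and higher fresh water levels alike. Both levels make up the ratio, so some such difference is built into the split.

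The member with the largest ratio, comp73612_c0_seq1, was a transcript of 504 bases and the only one of its component. It stood at 151 and 209 RPKM in fresh water, 150.04 and 57.4 RPKM in brackish water, and 3.85 and 1.74 RPKM in seawater. The means were 179.7 ± 41.0, 104 ± 65.5 and 2.79 ± 1.49 RPKM (SD, n = 2 each). Most of its rise fell on the step to brackish water, which was 37.1-fold, and the step on to fresh water was 1.73-fold. Brackish water library 1 and fresh water library 1 were level, with 2800 and 2290 reads at those depths, and did not differ beyond the 95% exact Poisson intervals of their reads.

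The most abundant member, comp243137_c1_seq2, of 518 bases, showed the opposite division. It stood at 393 and 293 RPKM in fresh water, 101.4 and 109.7 RPKM in brackish water, and 71.7 and 68.0 RPKM in seawater. The means were 343 ± 70.5, 106 ± 5.88 and 69.9 ± 2.63 RPKM (SD, n = 2 each). Its step to brackish water was the smallest of all members, 1.51-fold, and its step on to fresh water was 3.25-fold. The 2 libraries of each group lay close together in this transcript, and both of its steps exceeded the Poisson intervals of the reads. With TMM factors brackish water library 2 stood at 281 RPKM, above both fresh water libraries at 253 and 157 RPKM, so its order does not hold on that scale.

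In most members the step to brackish water was the larger one. The ratio of brackish water to seawater exceeded that of fresh water to brackish water in 56 of 62 members. The median ratios were 4.28 for brackish water over seawater and 2.25 for fresh water over brackish water. On the log2 scale the brackish water mean lay at a median of 0.59 of the way from seawater to fresh water, with quartiles of 0.526 and 0.670. This place rested on the 2 brackish water libraries unequally: it was 0.40 without library 1 and 0.82 without library 2. With TMM factors it was 0.90.

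In the other 6 members the second step was the larger one by the ratios of the group means. On the log2 scale brackish water lay nearer to seawater in some further members, down to 0.437 of the way to fresh water. The member with the largest second step had 49.5 and 57.5 RPKM in fresh water, 3.69 and 2.94 RPKM in brackish water, and 1.66 and 1.90 RPKM in seawater. On RPKM it was close to its seawater level in both brackish water libraries and 16.1-fold higher in fresh water. The next largest second step, 9.33-fold, was in a member at 18.2 and 38.5 RPKM in fresh water, 3.11 and 2.97 RPKM in brackish water, and 1.41 and 2.16 RPKM in seawater. In these 2 members the brackish water libraries lay within 1.5-fold of each other on RPKM, as they did in 14 of the 62 members. With TMM factors they stood further apart, at 2.40 and 7.53 RPKM in the first and 2.02 and 7.61 RPKM in the next.

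At the other end were members with hardly any second step. The smallest was 1.41-fold, in a transcript at 159 and 191 RPKM in fresh water, 143 and 104 RPKM in brackish water, and 12.9 and 45.0 RPKM in seawater. Here the seawater libraries differed 3.49-fold, more than any other 2 libraries of the same group in this transcript. The largest difference between seawater libraries was 4.84-fold, in a member at 206 and 242 RPKM in fresh water, 126 and 90.0 RPKM in brackish water, and 16.96 and 82.1 RPKM in seawater. Its higher seawater library lay only 1.096-fold under the lower brackish water library.

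The rule asks only that groups not overlap, and most gaps between the nearest libraries were narrow. The lower brackish water library exceeded the higher seawater library by a median of 1.996-fold, and this gap was under 1.5-fold in 22 members. The lower fresh water library exceeded the higher brackish water library by a median of 1.25-fold. That gap was under 1.5-fold in 45 members. Both gaps reached 1.5-fold in 10 members and 2-fold in 1.

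The member in which both gaps reached 2-fold had 37.7 and 51.9 RPKM in fresh water, 6.92 and 18.7 RPKM in brackish water, and 1.81 and 1.07 RPKM in seawater. It was also the member in which brackish water library 2 stood furthest above library 1. Its reads numbered 1029 and 1090 in fresh water, 232 and 599 in brackish water, and 27 and 32 in seawater. With TMM factors its brackish water library 2 stood at 47.9 RPKM, above both fresh water libraries at 24.3 and 27.8 RPKM. The order of this member does not hold on that scale.

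Read numbers of the members were lowest in seawater. Over the members, reads in seawater ran from 9 to 3148 in library 1 and from 19 to 4713 in library 2, with medians of 51 and 128. In fresh water the medians were 1281 and 1575 reads, and in brackish water 1255 and 393. Exact Poisson intervals of 95% cover counting error alone. Those of the nearest libraries did not overlap at the first step in 47 members, at the second in 37, and at both in 28. In the other 34 members the intervals overlapped at 1 of the steps or at both, which is not a test of a difference. The rule picked the members for the order of these libraries, and no share over all transcripts stands beside these counts. Nothing is read from them.

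The order of libraries within a group was not set by the rule, which treats both alike. Brackish water library 1 stood above library 2 in 58 of 62 members (93.5%), and in 83.3% of the 7651 transcripts that met the limits on the mean and on seawater. The median ratio of library 1 to library 2 was 2.62 over the members and 3.10 over the 7651. Fresh water library 2 stood above library 1 in 58 of 62 members (93.5%), against 65.4% of the 7651, with median ratios of 1.43 and 1.12. Seawater library 2 stood above library 1 in 36 of 62 members (58.1%), against 67.4%. The members thus shared the direction of the brackish water split with most of the 7651. The excess of fresh water library 2 was the larger departure from that wider set. The 7651 were not chosen for a high level in fresh water, and the order was not counted among other transcripts that were. With TMM factors the order in brackish water turned, with library 1 above library 2 in 17 members (27.4%) and in 39.6% of the 7651. Fresh water library 2 stayed above library 1 in 50 members (80.6%), against 38.8% of the 7651, with median ratios of 1.19 and 0.931. In seawater library 2 was above library 1 in 21 members (33.9%), against 49.0%.

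Brackish water library 1 was nearer on the log2 scale to the fresh water mean than to the seawater mean in 58 members, and library 2 in 21. The ratio of library 1 to library 2 reached 4 in 17 members and was 6.59 at most. That member stood at 98.9 and 114 RPKM in fresh water, 95.5 and 14.5 RPKM in brackish water, and 7.24 and 4.28 RPKM in seawater. Its brackish water library 1 was almost level with fresh water, and library 2 was 2.002-fold above the higher seawater library. Among the 33 members with a fresh water ratio of 10 or more the median ratio of library 1 to library 2 was 3.55, against 1.51 among the 29 others. A small fresh water ratio leaves little room between seawater and fresh water for the brackish water libraries, so the rule itself bears on this difference.

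To see how brackish water falls when it plays no part in the choice, transcripts were taken on fresh water and seawater alone, with the same limits. In all, 1001 transcripts stood at least 4 times higher in fresh water than in seawater with no overlap. Of these, 62.5% had brackish water library 1 at or above the lower fresh water library, 34.5% had it between the groups and 2.997% had it at or below the higher seawater library. Brackish water library 2 was at or above fresh water in 0.999%, between in 29.6% and at or below seawater in 69.4%. Both libraries fell between in 62 of the 1001 (6.19%), which are the members. A level between seawater and fresh water in both brackish water libraries was therefore an uncommon outcome among transcripts high in fresh water.

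Among transcripts high in seawater it was more common. With the same limits turned round, 330 transcripts were at least 4 times higher in seawater than in fresh water, and both brackish water libraries lay between in 132 of them (40.0%). With TMM factors the numbers chosen were 289 higher in fresh water and 1063 higher in seawater, with both libraries between in 14.5% and 29.1%. The share was lower among transcripts high in fresh water on both scales, but the gap between the shares narrowed with TMM factors. These shares are counts over transcripts of 6 libraries, with no test of their difference.

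**Figure D2:**
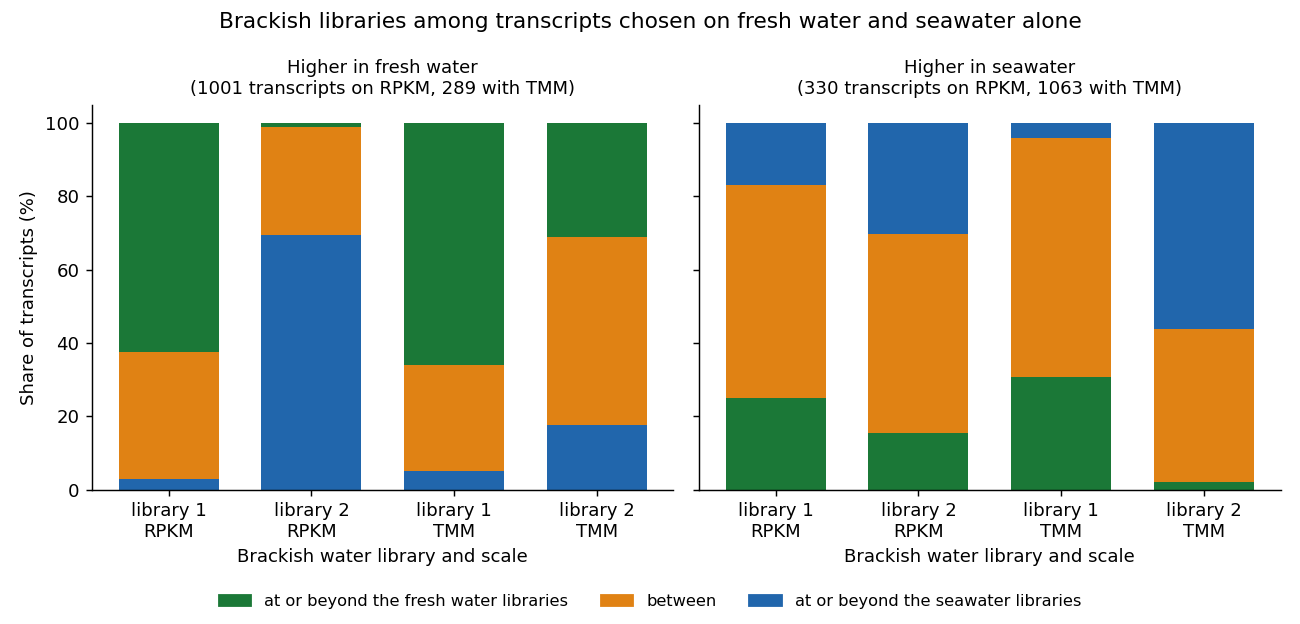
Share of transcripts, in percent, in which each brackish water library lay at or beyond the fresh water libraries, between the groups, or at or beyond the seawater libraries, on RPKM and on RPKM divided by TMM factors. On RPKM, among the 1001 transcripts higher in fresh water, library 1 was mostly at or above fresh water (62.5%) and library 2 mostly at or below seawater (69.4%).

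The second step did not hold in most members under another scaling of the libraries. With RPKM divided by TMM factors, both fresh water libraries stayed above both seawater libraries in all 62 members, and both brackish water libraries stayed above both seawater libraries in 55. Both fresh water libraries stayed above both brackish water libraries in 23 only. The members were picked for this order on RPKM, and no share over all transcripts stands beside these counts. The median ratio of fresh water to seawater was 4.54 on that scale, with a range of 1.81 to 26.6, and it was at least 4 in 38 members. All parts of the rule were met by 42 transcripts with TMM factors, of which 19 were members. With quantile normalization 98 transcripts met the rule, of which 39 were members.

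The 19 members that kept the rule with TMM factors had a median RPKM ratio of brackish water library 1 to library 2 of 4.29, against 1.62 in the 43 that did not. The factors lower library 1 and raise library 2. The members that kept the rule also had a larger ratio of fresh water to seawater on RPKM, with a median of 17.3 against 7.17. How far each of these bore on the difference was not tested. The 2 members named above were both among the 43. With TMM factors comp73612_c0_seq1 stood at 97.1 and 112 RPKM in fresh water, 97.4 and 147 RPKM in brackish water, and 5.87 and 1.99 RPKM in seawater. Its first step stayed large and its brackish water libraries then overlapped those of fresh water.

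**Figure D3:**
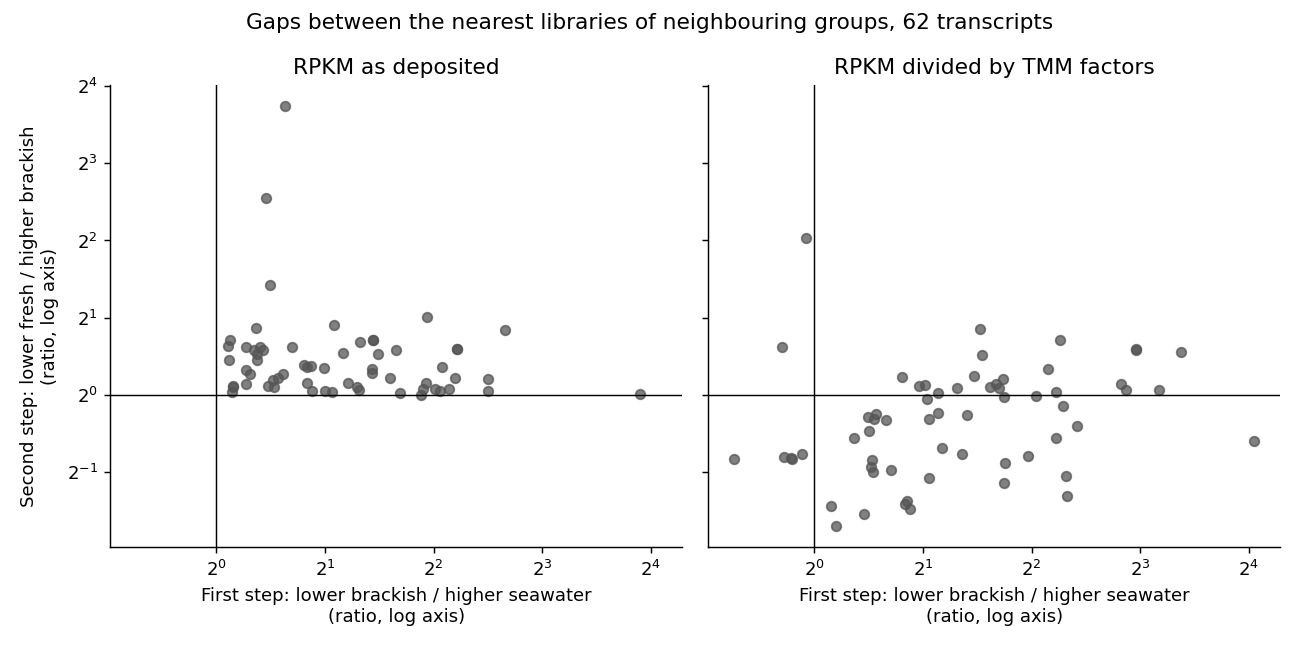
Gap at the first step (lower brackish water library over higher seawater library) and at the second step (lower fresh water library over higher brackish water library) for the 62 transcripts, on log axes; each point is 1 transcript and the lines mark a ratio of 1. On RPKM all points lie above 1 on both axes by the rule, and with TMM factors 55 stay right of 1 on the first step while 23 stay above 1 on the second.

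Tests covered the 25901 transcripts whose mean reached 1 RPKM. Over all of these limma on log2(RPKM + 1) with Benjamini-Hochberg adjustment called 3.05% higher in fresh water than in seawater. It called 23 of the 62 members, a contrast that the rule used, so nothing is read from the count. The called members had a fresh water to seawater ratio of 12.2 to 64.4, with a median of 20.1, and no member with a ratio above 13.4 missed the threshold of 0.05. The log2 fold change of the members on the log2(RPKM + 1) scale ran from 1.71 to 5.61 with a median of 2.86, and the median over all tested transcripts was 0.89. With TMM factors those medians were 1.88 for the members and 0.08 for all tested transcripts.

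The number of members called depended on single libraries. It was 2 without fresh water library 1, 0 without fresh water library 2 (27 at an unadjusted p under 0.05), 61 when either brackish water library was left out, 10 without seawater library 1 and 15 without seawater library 2. The share of all tested transcripts called higher moved with it. That share was 0.205% without fresh water library 1 and 0.027% without library 2, 37.4% and 36.6% without brackish water library 1 and 2, and 0.819% and 0.78% without seawater library 1 and 2. With TMM factors limma called 0 members (46 at an unadjusted p under 0.05), and edgeR on the recovered reads called 0 (45), while DESeq2 called 43, beside 15.5% of all tested transcripts.

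For brackish water against seawater limma called 1 member higher, against 0.0695% of all tested transcripts, and for fresh water against brackish water it called 0 members (6 at an unadjusted p under 0.05), against 0.158% of all. For fresh water against brackish water edgeR found 0 as well, with 1 member at an unadjusted p under 0.05, and DESeq2 called 1, beside 0.386% of all. The rule used both contrasts. The member called for brackish water was comp73612_c0_seq1. Without single libraries the count for brackish water against seawater was 0 by limma without fresh water library 1, fresh water library 2 or brackish water library 1 (13, 14 and 19 at an unadjusted p under 0.05). It was 33 without brackish water library 2, 2 without seawater library 1 and 3 without seawater library 2, in fits that called 20.8%, 0.127% and 0.228% of all tested transcripts higher. By edgeR it was 0 (49 at an unadjusted p under 0.05) and by DESeq2 40, beside 11.5% of all. The count for fresh water against brackish water was 36 without brackish water library 1, which is 58.1% of the members where the same fit called 52.2% of all tested transcripts, a share near the background. It was 1 without either seawater library (0.764% and 0.633% of all) and 0 without each of the other 3 libraries (fresh water library 1, fresh water library 2 and brackish water library 2, with 2, 1 and 4 members at an unadjusted p under 0.05). The log2 fold changes had medians of 1.63 for brackish water against seawater and 1.26 for fresh water against brackish water in the members, and of 0.12 and 0.70 over all tested transcripts. With TMM factors the median for fresh water against brackish water was 0.21 in the members, 38 of 62 were above 0, and the median over all tested transcripts was 0.00.

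In the authors' deposited table that sets fresh water against seawater, the listing held 26 of the 62 members, and all 26 carried its mark of significance. Being listed nearly fixed the mark, which 96.0% of the transcripts listed there carried for a higher level. The same mark of the authors' deposited table was on 21.5% of the 25901 transcripts. The authors' deposited table for brackish water and seawater listed all 62 members and marked 7 as higher, against 0.266% of the 25901. Both contrasts were used by the rule on the same libraries, so nothing is read from these counts.

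The members came from 60 components, and most were the only form of theirs. A member was the single transcript of its component in 42 cases (67.7% of members), against 50.1% of the 7651 transcripts. Members shared a component in 2 cases. In one of these the pair were the longest members, and the longest, of 8408 bases, stood at 16.3 and 22.7 RPKM in fresh water, 10.9 and 7.23 RPKM in brackish water, and 5.38 and 2.57 RPKM in seawater. The other long form of that component, of 8267 bases, had nearly the same values, so these 2 members are to be read as 1 observation.

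In 17 components a member stood beside 34 other transcripts outside the set, of which 29 were tested. The fresh water mean of these 29 exceeded the seawater mean in 27 and was at least 4 times as high in 11, with a median ratio of 2.97. Over all other tested transcripts the median ratio was 2.18, and 30.1% had a ratio of at least 4. By limma 2 of the 29 were called higher in fresh water than in seawater, where 3.05% of all tested transcripts were. On the TMM scale the count was 0, with 6 at an unadjusted p under 0.05, as it was for edgeR on recovered reads (6 likewise), and DESeq2 called 6 (20.7%), beside 15.5% of all tested transcripts. The 2 became 0 by limma without fresh water library 1 or 2 or seawater library 1 (7, 2 and 5 at an unadjusted p under 0.05), 1 without seawater library 2, and 12 without either brackish water library. These 12 are 41.4% of the 29, near the 37.4% and 36.6% of all tested transcripts in those fits. Both called transcripts lay in components whose sum met the rule. These forms may share reads with a member, so they are not independent of it.

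Summed over all forms, 4 of the 17 components met the rule, and 47 of all 60 did. In 42 of the 60 the member is the only form, so the sum meets the rule by construction. The same holds for the component whose 2 forms are both members. In 1 of the 4 the other form stood at 0 RPKM in every library. In another the member took 99.99% of the fresh water reads of its component. The median ratio of fresh water to seawater was 5.84 for the 17 sums and 11.5 for the members in them. The largest drop was in a component of 4 forms whose member had a ratio of 47.8. The sum of that component stood at 322 and 470.3 RPKM in fresh water, 275 and 135 RPKM in brackish water, and 87.1 and 115 RPKM in seawater, a ratio of 3.92. The smallest sum ratio was 1.40, in a component at 71.3 and 84.4 RPKM in fresh water, 45.9 and 31.0 RPKM in brackish water, and 68.6 and 42.8 RPKM in seawater. In that component fresh water lay above the other groups, brackish water and seawater overlapped, and 1 assembled form met the rule.

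**Figure D4:**
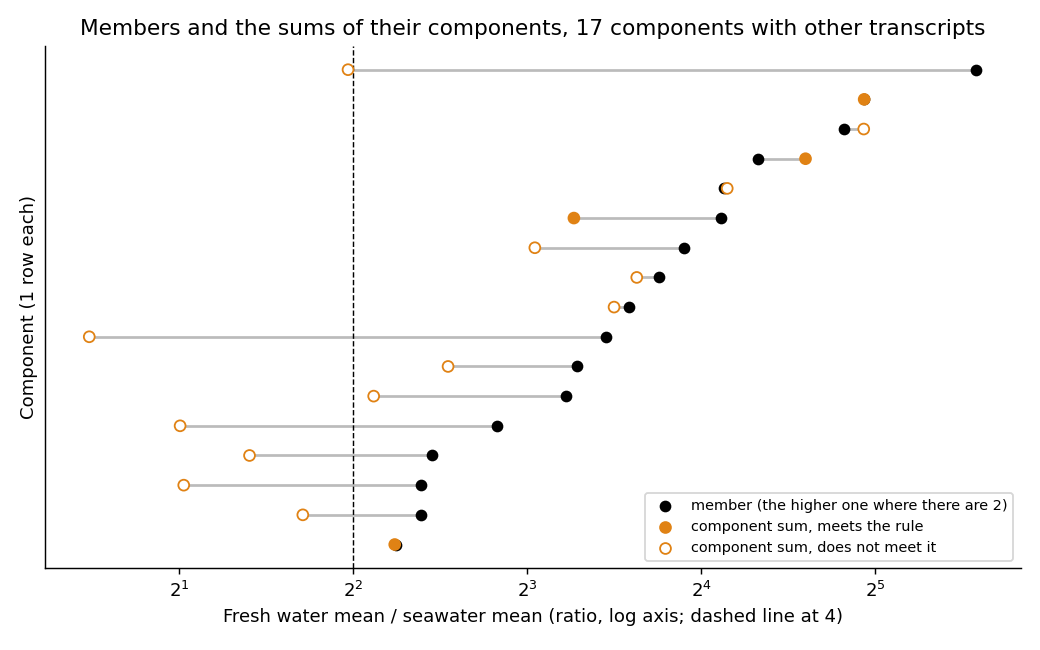
Ratio of fresh water mean to seawater mean, on a log axis, for the members and for the sums of their components, in the 17 components that held other transcripts. In 4 of the 17 the sum met the stepwise rule, and the sums ranged from 1.40 to 30.6.

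Length was not used by the rule. The members had a median length of 1125 bases, with quartiles of 653 and 1886 and a range of 272 to 8408, and the 7651 transcripts a median of 1550 bases with quartiles of 820 and 2712. Members of 2000 bases or more made up 22.6%, against 38.0% of the 7651, and those of 500 bases or fewer 16.1%, against 11.9%. The shortest member, of 272 bases, stood at 32.4 and 65.8 RPKM in fresh water, 26.9 and 8.53 RPKM in brackish water, and 5.57 and 3.22 RPKM in seawater. It rested on 25 and 29 reads in seawater, and neither of its steps exceeded the Poisson intervals.

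Apart from the upper limit on the mean, the thresholds cut through neighbouring values. The member just inside the ratio of 4 had a ratio of 4.10 and stood at 9.20 and 15.99 RPKM in fresh water, 7.06 and 6.30 RPKM in brackish water, and 2.54 and 3.60 RPKM in seawater. The transcript just outside had a ratio of 3.78 and stood at 22.6 and 29.4 RPKM in fresh water, 20.004 and 14.1 RPKM in brackish water, and 4.14 and 9.59 RPKM in seawater. Without the limit on the ratio 72 transcripts would be in the set, and the 10 others all had a ratio of 2 to 4. The member just inside the seawater limit had a lowest seawater value of 1.01 RPKM, and the transcript just outside 0.990 RPKM. The lowest mean among members was 5.54 RPKM, in a transcript at 9.65 and 9.45 RPKM in fresh water, 8.30 and 2.45 RPKM in brackish water, and 1.70 and 1.71 RPKM in seawater, and the nearest transcript left out had a mean of 4.59 RPKM. At the upper limit, 2 further transcripts met all but the limit of 1000 RPKM, and the nearer had a mean of 1475 RPKM. The highest mean among members was 172.8 RPKM, so this limit fell in a wide gap.

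The limit on order at the second step was the closest. In the member nearest to failing at the second step, the lower fresh water library stood at 14.5397 RPKM and the higher brackish water library at 14.5353 RPKM, a ratio of 1.0003. The nearest transcript left out had a ratio of 0.996. At the first step these ratios were 1.08 inside and 0.976 outside. The transcript outside stood at 454 and 293 RPKM in fresh water, 99.2 and 113 RPKM in brackish water, and 102 and 77.0 RPKM in seawater, close to the values of comp243137_c1_seq2, with which it shares the leading number of its ID. Both showed their main rise between brackish water and fresh water on RPKM.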

How the data were processed

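Gill mRNA libraries, 2 of fresh water, 2 of brackish water and 2 of seawater shrimp, were grouped by the labels. For every library and transcript the authors deposited RPKM, per the file headers. Tables against seawater hold, per the file headers, the authors' estimated count averaged over each group, a log2 fold change and a p-value. No aligner, counting tool or version is named in the labels or headers. In each library, RPKM times length fell on whole multiples of a single step (tolerance 0.1 read) for 100% of values above 0, so reads were recovered, and averaging them gave 100% of the deposited mean counts.

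The members and lists were chosen with earlier results of these data known. Since the files held RPKM, the test set for that unit was used: limma 3.58.1, trend option, on log2(RPKM + 1) of 25901 transcripts (mean of 1 RPKM or more), with group as the only term over 6 libraries and Benjamini-Hochberg adjustment at 0.05. Such fold changes understate those of low transcripts. edgeR 4.0.16 quasi-likelihood and DESeq2 1.42.0 on the recovered reads were alternatives, as were other scalings, filters, pseudocounts, a block and left-out libraries. For fresh water against seawater edgeR called 0 of 43835 transcripts (45 of the members were higher at an unadjusted p under 0.05) and DESeq2 7043 of 25901. The fits were tested on simulated data. The simulated libraries differed in depth but lacked the unevenness between the real libraries, so that test does not cover it. The transcripts named are the member with the largest ratio and the one with the highest mean, and other members are given by their place in the list. Transcript sequences were not used here.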

Additional observations from a re-analysis of the deposited data

How the results depend on the processing

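Depth limits the seawater values most, at 51 and 128 reads for the median member, and 2 libraries a group leave 3 residual degrees of freedom. The 62 transcripts of the rule became 98 with quantile normalization, 38 at a ratio of at least 8 and 30 at a lowest seawater value of at least 2 RPKM, and stayed within 1.5 times under 6 further settings other than a left-out library, though with TMM factors 19 of the 42 were members. Leaving out 1 library, which removes conditions of the rule, gave 60 to 369.

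Members called higher in fresh water than in seawater, 23, became 0 with TMM factors (46 at an unadjusted p under 0.05), with quantile normalization (61), with a filter at 5 RPKM (61), with no filter (55) and by edgeR (45), 43 by DESeq2 (beside 15.5% of all tested transcripts) and 61 in a fit of those 2 groups alone (37% of all), and ranged from 0 to 61 without single libraries (0.027% to 37.4% of all). For brackish water against seawater the 1 became 0 with TMM factors (45), quantile normalization (49), pseudocounts of 0.1 (30) and 5 (21), both filters (29 and 12), edgeR (49) and the 2 groups alone (14), and 40 by DESeq2 (11.5% of all), with 0 to 33 without single libraries (up to 20.8% of all). For fresh water against brackish water the 0 (6) became 1 with a pseudocount of 5 and by DESeq2, with 0 to 36 without single libraries. The 36, 58.1% of the members, stand beside 52.2% of all. The 2 other transcripts of the components became 0 with TMM factors (6), quantile normalization (7), both filters (9 and 6) and edgeR (6), 6 by DESeq2 and 12 in the 2 groups alone, with 0 to 12 without single libraries. The 6 and 12 are 20.7% and 41.4% of the 29, beside 15.5% and 37% of all. A group left with 1 library is assumed to vary like the others. The causes of these changes were not tested.

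With the replicate block 16 members were called higher in fresh water than in seawater, beside 1.52% of all tested transcripts. For brackish water against seawater the count was 1, beside 0.108% of all. For fresh water against brackish water it was 0, beside 0.313% of all. Of the other transcripts of the components 2 were called, 6.9% of the 29, beside 1.52% of all. The libraries share only a number: deviations of same-numbered libraries correlated across transcripts at -0.41 between fresh and brackish water, 0.27 between fresh water and seawater and -0.46 between brackish water and seawater.

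Members with brackish water library 1 above library 2, 58, became 17 with TMM factors and 34 with quantile normalization. The place of brackish water, 0.59, became 0.90 with TMM factors and 0.72 with quantile normalization, with 0.40 to 0.82 without single libraries. The 47 component sums that met the rule became 13 with TMM factors and 31 with quantile normalization, with 42 to 51 without single libraries. Most of the 47 are a single member and follow that member under every setting. The log2 fold change of comp73612_c0_seq1, fresh water against seawater, was 4.54 to 6.04 and that of comp243137_c1_seq2 was 1.10 to 2.64 over their alternatives, and neither changed sign.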
